A study of Rattus norvegicus with 12 samples.

Results

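The genes described here are 9 membrane channel and connexin genes linked to atrial fibroblasts, namely the connexins Gja1 and Gjc1, the inward rectifier potassium channels Kcnj2 and Kcnj8, the transient receptor potential (TRP) channels Trpm7, Trpc1 and Trpv4, and the mechanosensitive channels Piezo1 and Piezo2. They were taken by symbol from tables of 22850 features, and each of the 9 symbols matched 1 row, whose identifier was the symbol with the prefix gene-. The cells were primary fibroblasts from the atria of newborn Sprague-Dawley rats, obtained by differential adhesion, which enriches fibroblasts without sorting them. All cultures received angiotensin II (AngII) at 1 μmol/L for 48 h in medium with 2% serum. In the AngII+HNG group HNG, a synthetic analogue of the mitochondrial peptide humanin, was given at 10 μmol/L, and in the AngII+MOTS-c group the mitochondrial peptide MOTS-c was given at 5 μmol/L, each starting 1 h ahead of AngII. Each of the 3 groups held 4 libraries described as biological replicates, 12 in all. Replicates 2 and 3 of each group share a number in their library names, and whether they came from separate cell preparations is not stated, so the p-values, which count 4 libraries per group, may be too small. Every group received AngII, so these libraries cannot show what AngII itself did to the genes.

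Connexins assemble into gap junction channels that join the cytoplasm of neighbouring cells and let ions and small molecules pass. In the atrium they carry current between myocytes, and fibroblasts use them to couple to each other and, in culture, to myocytes. Inward rectifier potassium channels hold the resting membrane potential near the potassium equilibrium potential, and TRP and Piezo channels admit cations, calcium among them, in response to chemical or mechanical stimuli. Calcium entry through such channels is a known input to fibroblast proliferation and to the switch from fibroblast to myofibroblast.

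The libraries held 27960586 to 38322354 counts on genes. AngII+HNG replicate 3 stood apart from the other libraries of its group, with a chi-square per gene of 14.3 to 19.4 between its counts and theirs and 4.40 or more for every pair of replicates in the series, and values without it are given where a member's result rests on it. The labelled cell type was checked with marker lists. All 10 fibroblast markers were detected in every library and summed to 62969 to 70920 CPM, a unit that removes differences in library size, with Col1a1 the highest in FPKM. Of these 10, Thy1 and Tcf21 were higher with AngII+HNG than in both other groups (edgeR, adjusted p below 0.05). Of all genes, 5.98% passed against AngII and 4.41% against AngII+MOTS-c. All 11 cardiomyocyte markers were also detected in every library, with Nppa the highest in FPKM, and summed to 5789 to 7667 CPM with overlapping groups. Several of the members are also expressed by atrial myocytes, so their values describe a culture that contained myocyte RNA, and how much of each member's signal came from other cells was not tested. Epicardial and mesothelial markers summed to 97.6 to 115 CPM and Schwann and neural markers to 71.5 to 87.2 CPM. In bulk RNA, fewer cells of a type and less RNA per cell cannot be told apart.

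Gja1, Piezo1 and Trpm7 were the highest of the 9 genes per length, and Trpv4 the lowest. Levels between genes were compared in FPKM, the authors' value that divides a count by gene length and library total. Gja1 averaged 23.5 ± 1.26 FPKM, Piezo1 22.6 ± 0.819 FPKM and Trpm7 22.3 ± 1.15 FPKM (SD over all 12 libraries). The order of these 3 genes was not fixed, since Gja1 exceeded Piezo1 in 8 of 12 libraries and Piezo1 exceeded Trpm7 in 7 of 12. Gjc1 followed at 13.1 ± 1.27 FPKM, below Trpm7 in all 12 libraries. A wide step separated Gjc1 from Trpc1, at 3.25 ± 0.281 FPKM, and Piezo2, at 2.498 ± 0.200 FPKM. Trpc1 exceeded Piezo2 in all 12 libraries, although the highest Piezo2 value, 2.79 FPKM, lay just above the lowest Trpc1 value, 2.78 FPKM. Kcnj8, at 1.12 ± 0.314 FPKM, and Kcnj2, at 1.10 ± 0.133 FPKM, could not be ordered, Kcnj8 being the higher in 5 of 12 libraries. Trpv4 averaged 0.367 ± 0.0510 FPKM and lay below Kcnj2 in every library. Among all features, 86.7% had a lower mean FPKM than Gja1 and 42.5% a lower one than Trpv4.

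**Figure D1:**
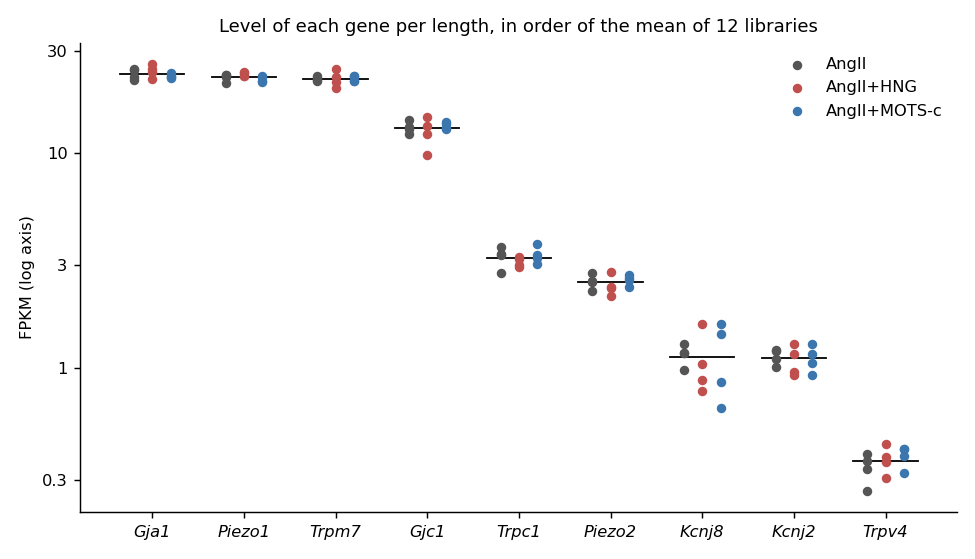
FPKM (log axis) of the 9 genes in the 12 libraries, with points coloured by treatment and a line at the mean of the 12. Gja1, Piezo1 and Trpm7 share a level above 20 FPKM, Kcnj8 and Kcnj2 lie near 1 FPKM with Kcnj8 the more scattered, and the treatments overlap for every gene.

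None of the 9 genes passed the test in any of the 3 comparisons. Counts were tested with edgeR's quasi-likelihood test, a gene being called at an adjusted p below 0.05 over all genes tested, and all 9 members had enough counts to be tested. With AngII+HNG against AngII 0 of 9 were called, where 5.98% of all 14524 genes tested were called. With AngII+MOTS-c against AngII 0 of 9 were called, and the background was 0.0069% of 14488 genes, a single gene. With AngII+HNG against AngII+MOTS-c 0 of 9 were called, and the background was 4.41% of 14448 genes. With DESeq2 and with limma on log2 FPKM the count was also 0 in each comparison. At an unadjusted p below 0.05, 2 of 9 members (Gjc1 and Piezo2) passed with HNG, where 20.3% of all genes did, 0 of 9 with MOTS-c, where 5.05% did, and 1 of 9 (Piezo2) between the peptides, where 19.3% did. The CPM of the groups did not overlap for 1 member with HNG, against 13.7% of all genes, for 0 with MOTS-c, against 3.41%, and for 1 between the peptides, against 12.6%. In a list of 9 a single gene makes 11.1%, so these shares were within 1 or 2 genes of the background. The median log2 fold change of the members was -0.07 with HNG, where the median of all genes tested was 0.0043. With MOTS-c it was -0.03, where that of all genes was -0.00076.

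**Figure D2:**
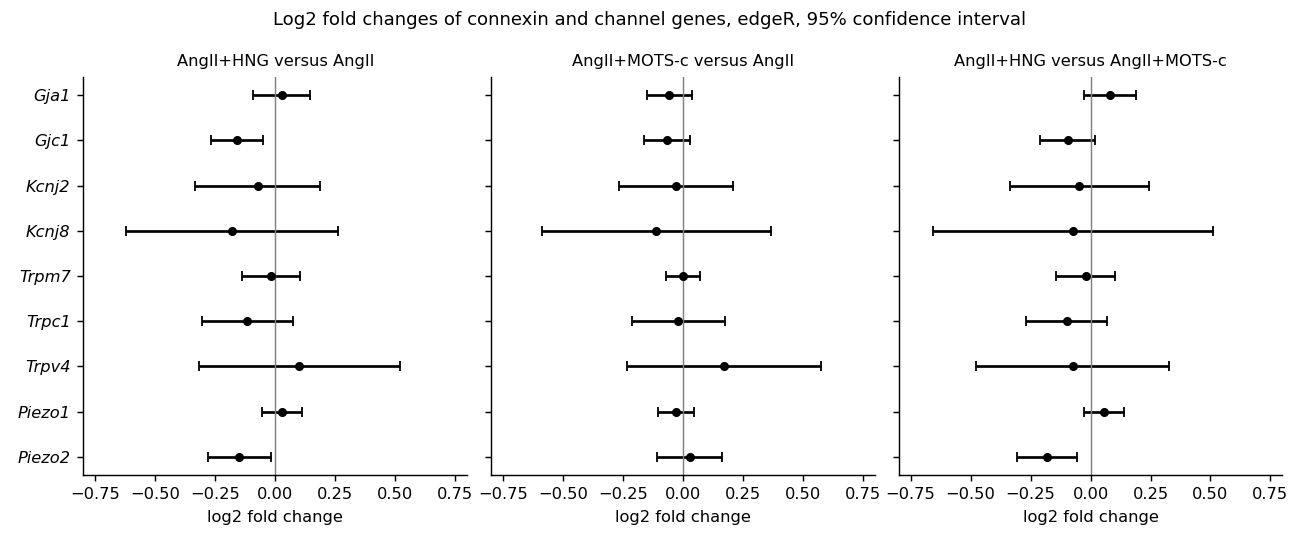
Log2 fold changes (horizontal axes) of the 9 genes in the 3 comparisons, edgeR on counts, with 95% confidence intervals and 4 libraries per group. The intervals of Piezo1 and Trpm7 are narrow around 0, those of Kcnj8 and Trpv4 are wide, and the intervals of Gjc1 and Piezo2 with HNG lie below 0 although neither gene passed the adjusted threshold.

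Gja1 encodes Cx43, the main gap junction protein of working myocardium and of cardiac fibroblasts. It stood at 81.4, 72.3, 74.8 and 80.9 CPM in the AngII libraries, at 80.5, 77.5, 71.9 and 84.2 CPM in the AngII+HNG libraries and at 73.0, 72.9, 73.2 and 78.0 CPM in the AngII+MOTS-c libraries. The 3 groups overlapped, with AngII and AngII+HNG covering nearly the same range and 3 of the 4 AngII+MOTS-c libraries at its lower end. The log2 fold change was 0.03 ± 0.056 (SE) with HNG (edgeR, adjusted p = 0.854) and -0.06 ± 0.043 with MOTS-c (edgeR, adjusted p = 0.931). Between HNG and MOTS-c it was 0.08 ± 0.051 (edgeR, adjusted p = 0.408). Without AngII+HNG replicate 3 the log2 fold change was 0.06 with HNG (edgeR, adjusted p = 0.518) and 0.12 between the peptides (edgeR, adjusted p = 0.145). Over the 3 comparisons the 95% confidence intervals of the change in Gja1 reached from -9.93% to 14.2%.

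Gjc1 encodes Cx45, a connexin of low conductance found in the conduction system, in immature myocardium and in fibroblasts. It stood at 39.8, 37.4, 40.8 and 38.8 CPM with AngII, at 33.8, 35.7, 33.4 and 36.9 CPM with AngII+HNG and at 35.8, 36.5, 38.4 and 38.7 CPM with AngII+MOTS-c. All 4 AngII+HNG libraries lay below all 4 AngII libraries, and the AngII+MOTS-c libraries overlapped both. The difference with HNG was small, a log2 fold change of -0.16 ± 0.051 or -10.5% (95% confidence interval -17.0% to -3.37%), and it did not pass the threshold (edgeR, adjusted p = 0.0919). In an exact two-sided permutation test of the CPM it gave p = 0.0286, the smallest that 4 libraries against 4 allow and 1 of 27 such tests made on the members. Without AngII+HNG replicate 3 the log2 fold change was -0.14 (edgeR, adjusted p = 0.146), and with replicates 2 and 3 summed it was -0.15 (edgeR, adjusted p = 0.144). With MOTS-c it was -0.07 ± 0.044 (edgeR, adjusted p = 0.925), and between the peptides -0.09 ± 0.053 (edgeR, adjusted p = 0.351). In FPKM the difference with HNG was not seen in the same way. The AngII+HNG libraries stood at 9.75, 13.4, 12.3 and 14.8 FPKM, which were both the lowest and the highest of all 12 values, against 12.3 to 14.2 FPKM with AngII, and limma on log2 of FPKM plus 1 gave a log2 difference of -0.08 (adjusted p = 0.764).

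Kcnj2 encodes Kir2.1, the main channel of the inward rectifier current. It stood at 5.84, 6.85, 6.39 and 6.99 CPM with AngII, at 5.47, 6.66, 5.22 and 7.30 CPM with AngII+HNG and at 6.02, 7.44, 5.32 and 6.68 CPM with AngII+MOTS-c. The groups overlapped fully, and each peptide group was more spread than the AngII group. Log2 fold changes were -0.07 ± 0.12 with HNG (edgeR, adjusted p = 0.805), -0.03 ± 0.11 with MOTS-c (edgeR, adjusted p = 0.984) and -0.05 ± 0.13 between them (edgeR, adjusted p = 0.888). Without AngII+HNG replicate 3 the log2 fold change with HNG was -0.0016 (edgeR, adjusted p = 0.997) and that between the peptides 0.02 (edgeR, adjusted p = 0.951). The intervals allowed changes from -20.7% to 18.3%.

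Kcnj8 encodes Kir6.1, a pore subunit of ATP-sensitive potassium channels, and was the most variable of the 9 genes. It stood at 2.68, 2.40, 2.07 and 2.59 CPM with AngII, at 1.49, 1.78, 2.17 and 3.09 CPM with AngII+HNG and at 1.77, 1.47, 2.59 and 3.25 CPM with AngII+MOTS-c. In both peptide groups replicate 4 was the highest and lay above every AngII library, while replicates 1 and 2 lay below every AngII library. These values rested on 42 to 110 counts per library, and the variance within groups was 6.14 times that of counting alone. The log2 fold changes were -0.18 ± 0.20 with HNG (edgeR, adjusted p = 0.694), -0.11 ± 0.22 with MOTS-c (edgeR, adjusted p = 0.972) and -0.07 ± 0.27 between the peptides (edgeR, adjusted p = 0.916). Without AngII+HNG replicate 4 the difference with HNG was -0.41 on the log2 scale (edgeR, adjusted p = 0.249). The 95% confidence interval of the change was -35.0% to 19.96% with HNG and -36.5% to 42.6% between the peptides.

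The partner of Kcnj8 was expressed at a far higher level than the pore. Abcc9, which encodes the sulfonylurea receptor SUR2 that joins Kir6.1 or Kir6.2 in the channel, averaged 7.31 ± 1.09 FPKM over the 12 libraries and had the highest FPKM of the 17 inward rectifier and sulfonylurea receptor genes. Its CPM was 52.1 to 67.0 with AngII, 42.4 to 54.3 with AngII+HNG and 49.5 to 67.7 with AngII+MOTS-c. Abcc9 did not pass the test with HNG at a log2 fold change of -0.27 ± 0.083 (edgeR, adjusted p = 0.0852) or with MOTS-c at -0.02 ± 0.095 (edgeR, adjusted p = 0.992). Kcnj11, which encodes Kir6.2, averaged 0.854 ± 0.144 FPKM. Its log2 fold change was 0.14 ± 0.16 with HNG (edgeR, adjusted p = 0.701) and -0.20 ± 0.15 with MOTS-c (edgeR, adjusted p = 0.930).

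**Figure D3:**
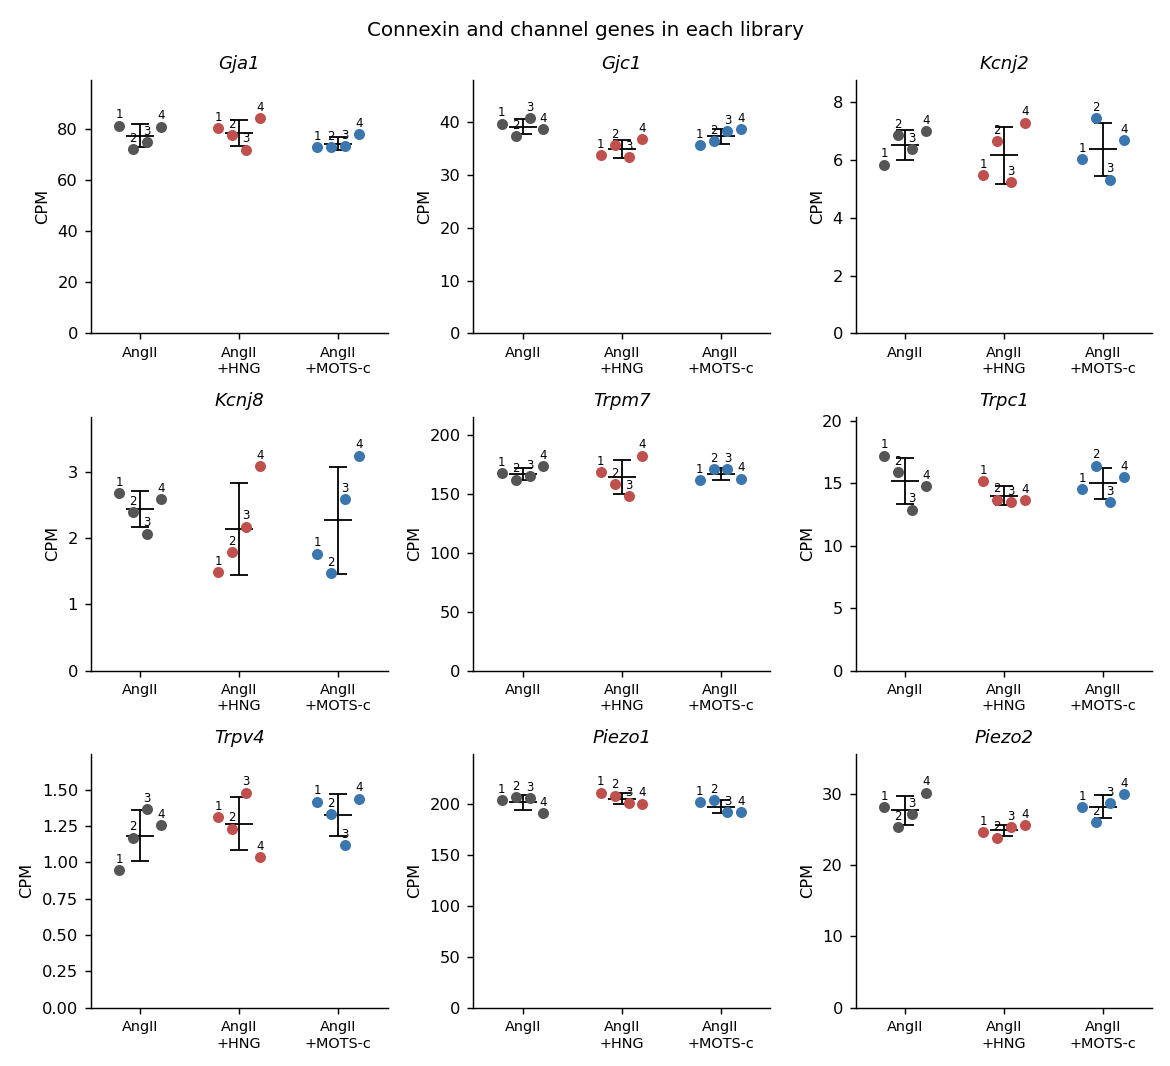
CPM of the 9 genes in each library, by treatment, with the replicate number above each point and bars for mean ± SD (n = 4); each vertical axis starts at 0. Kcnj8 shows the widest scatter, with replicate 4 highest in both peptide groups, and the AngII+HNG points of Gjc1 and Piezo2 lie low within a narrow range.

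Trpm7 encodes a cation channel permeable to calcium and magnesium that carries a kinase domain, and it was the TRP member with the highest level. It stood at 167, 162, 165 and 173 CPM with AngII, at 168, 158, 148 and 182 CPM with AngII+HNG and at 162, 171, 171 and 163 CPM with AngII+MOTS-c. The AngII+HNG libraries enclosed all others, with replicate 3 the lowest and replicate 4 the highest of the 12. The log2 fold change was -0.02 ± 0.056 with HNG (edgeR, adjusted p = 0.907), and it was 0.03 without AngII+HNG replicate 3. With MOTS-c the 95% confidence interval of the change was -4.78% to 5.02% (edgeR, adjusted p = 0.9998).

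Trpc1 encodes a subunit of receptor- and store-operated cation channels. It stood at 17.2, 15.9, 12.9 and 14.8 CPM with AngII, at 15.2, 13.7, 13.5 and 13.6 CPM with AngII+HNG and at 14.5, 16.4, 13.4 and 15.5 CPM with AngII+MOTS-c. The AngII libraries spanned the range of both peptide groups, and 3 of the 4 AngII+HNG libraries lay close together near its lower end. Its log2 fold change was -0.12 ± 0.088 with HNG (edgeR, adjusted p = 0.517) and -0.02 ± 0.090 with MOTS-c (edgeR, adjusted p = 0.991). Between the peptides it was -0.10 ± 0.078 (edgeR, adjusted p = 0.528).

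Trpv4 encodes a calcium-permeable channel opened by osmotic and mechanical stimuli and had the fewest reads of the 9 genes, 32 to 50 counts per library. It stood at 0.947, 1.17, 1.37 and 1.25 CPM with AngII, at 1.31, 1.23, 1.48 and 1.04 CPM with AngII+HNG and at 1.42, 1.33, 1.12 and 1.44 CPM with AngII+MOTS-c. The groups overlapped, and the spread within them was 0.794 times the variance of counting alone, a spread no larger than that of counting. Log2 fold changes were 0.10 ± 0.19 with HNG (edgeR, adjusted p = 0.839) and 0.17 ± 0.19 with MOTS-c (edgeR, adjusted p = 0.945). Between the peptides it was -0.08 ± 0.19 (edgeR, adjusted p = 0.865). The intervals reached from -28.2% to 49.2%.

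Piezo1 encodes a cation channel that opens when the membrane is stretched. It stood at 203, 207, 205 and 190 CPM with AngII, at 211, 208, 201 and 200.1 CPM with AngII+HNG and at 201, 203, 192 and 192 CPM with AngII+MOTS-c. These were the steadiest values among the 9 genes, with a coefficient of variation of 3.30% over all 12 libraries. The log2 fold change was 0.03 ± 0.039 with HNG (edgeR, adjusted p = 0.753), -0.03 ± 0.035 with MOTS-c (edgeR, adjusted p = 0.952) and 0.06 ± 0.039 between the peptides (edgeR, adjusted p = 0.461). Over the 3 comparisons the 95% confidence intervals reached from -6.98% to 10.1%.

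Piezo2, best known from sensory neurons, stood at 28.1, 25.3, 27.2 and 30.1 CPM with AngII, at 24.6, 23.8, 25.4 and 25.6 CPM with AngII+HNG and at 28.1, 26.05, 28.7 and 29.9 CPM with AngII+MOTS-c. All 4 AngII+HNG libraries lay below all 4 AngII+MOTS-c libraries, and they overlapped the AngII group at a single library, AngII replicate 2. Between the peptides the log2 fold change was -0.18 ± 0.058 or -11.7% (95% confidence interval -19.1% to -3.75%), which did not pass the threshold (edgeR, adjusted p = 0.103). The exact two-sided permutation test of this difference gave p = 0.0286, again the smallest possible value, and with replicates 2 and 3 summed the log2 fold change was -0.19 (edgeR, adjusted p = 0.140). Against AngII the log2 fold change with HNG was -0.15 ± 0.060 (edgeR, adjusted p = 0.182) and that with MOTS-c was 0.03 ± 0.062 (edgeR, adjusted p = 0.976). Without AngII+HNG replicate 3 the difference between the peptides was -0.19 (edgeR, adjusted p = 0.107) and that with HNG against AngII was -0.16 (edgeR, adjusted p = 0.175). Limma on log2 of FPKM plus 1 gave -0.06 between the peptides (adjusted p = 0.674). Over the 19 alternatives the log2 fold change with HNG against AngII reached from -0.193 to -0.045.

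The counts and the FPKM of Gjc1 and Piezo2 diverged in 1 or a few libraries. Dividing the count by the FPKM and the library total gives the gene length that the authors' calculation used, which for most genes was nearly constant, with a median coefficient of variation of 0.501% over the libraries among 12647 genes with at least 30 counts in every library. Piezo1 varied by 0.143%, Trpm7 by 0.195%, Kcnj2 by 0.390%, Gja1 by 0.769% and Trpv4 by 1.09%. Gjc1 varied by 8.82%, more than 95.7% of these genes, from 2523 bases in AngII+HNG replicate 4 to 3492 bases in AngII+HNG replicate 1. Its lowest and highest FPKM came from these same libraries, whose CPM were 33.8 and 36.9. Piezo2 was between 10756 and 11123 bases in the other libraries but 8898 bases in AngII+HNG replicate 1. That library therefore had the highest Piezo2 value in FPKM, 2.79, and one of the lowest in CPM, 24.6. Kcnj8 varied by 5.70% and Trpc1 by 3.18%. How the lengths were assigned in each library is not stated, and its cause was not tested. Tests between groups were therefore read from the counts, and FPKM was used for the order of the genes.

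**Figure D4:**
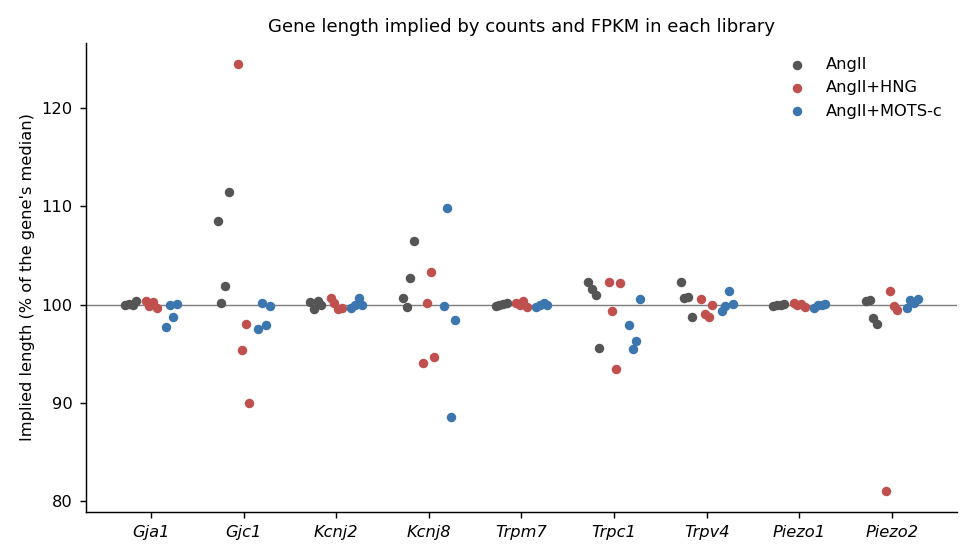
Gene length implied by counts, library total and FPKM in each library, as a percentage of the gene's median over the 12 libraries, with points coloured by treatment. AngII+HNG replicate 1 stands apart for Gjc1 (high) and Piezo2 (low), whereas the points of Piezo1, Trpm7 and Kcnj2 coincide near 100%.

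Genes related to the members, their families and partners, were counted in 8 lists that together hold 234 genes, the members included. With HNG, 19 of the 177 list genes tested were called, 11 higher and 8 lower, which is 10.7% against the 5.98% of all genes, and none of the 19 was a member. With MOTS-c 0 of 175 were called with edgeR, and also with DESeq2 and limma. Between the peptides 11 of 175 were called, 7 higher with HNG and 4 lower, or 6.29% against 4.41%. The calls with HNG were spread over the lists. In the connexins and pannexins 1 of 10 genes tested was higher, in the gap junction partners 2 of 15 were lower, and of the inward rectifier channels and sulfonylurea receptors 0 of 11 were called. Of the other potassium channels 2 of 36 were higher and 2 lower, and of the TRP family 2 of 18 were higher and 2 lower. The mechanosensitive channels and Piezo partners had 2 of 22 higher and 1 lower, the latter being Pkd2, which is also in the TRP list and so counted in both, calcium entry and handling 3 of 35 higher, and sodium, chloride and cation channels 1 of 32 higher and 2 lower. The list medians of the log2 fold change with HNG lay between -0.08 for the gap junction partners and 0.07 for the sodium, chloride and cation channels.

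Among connexins, Gja5 rose with HNG, while Gja1 and Gjc1 did not pass the test. Gja5 encodes Cx40, the connexin of atrial myocytes and arterial endothelium. It stood at 13.1 to 15.4 CPM with AngII, at 17.6 to 22.1 CPM with AngII+HNG and at 12.7 to 18.6 CPM with AngII+MOTS-c. All 4 AngII+HNG libraries were above all AngII libraries, with a log2 fold change of 0.50 ± 0.089 (edgeR, adjusted p = 0.00603). Between the peptides it was 0.34 ± 0.12 and did not pass (edgeR, adjusted p = 0.125). The sum of the 9 endothelial markers was higher with HNG too. It was 75.4 to 84.9 CPM with AngII, 96.9 to 107 CPM with AngII+HNG and 80.2 to 85.0 CPM with AngII+MOTS-c. Of the 9 markers, 4 were called higher with HNG, where 5.98% of all genes were called. None of the 9 was at 0 in a library. Of the 11 cardiomyocyte markers, 1 was called higher with HNG, Tnni3, and their sums were 6275 to 7123 CPM with AngII, 6555 to 7667 CPM with AngII+HNG and 5789 to 7548 CPM with AngII+MOTS-c. Their median log2 fold change was 0.08 with HNG and 0.14 between the peptides. The part of either marker list in the result was not tested. Of the partners, Pkp2, a desmosomal plaque protein, fell by 0.24 ± 0.045 on the log2 scale with HNG (edgeR, adjusted p = 0.00834).

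The TRP genes called with HNG were others than the members. Trpv2, which encodes a calcium-permeable channel, stood at 16.04 to 18.4 CPM with AngII and rose to 20.1 to 21.6 CPM with AngII+HNG, a log2 fold change of 0.29 ± 0.060 (edgeR, adjusted p = 0.0124). It stood at 15.03 to 17.6 CPM with AngII+MOTS-c and differed between the peptides as well, the log2 fold change of AngII+HNG against AngII+MOTS-c being 0.41 ± 0.068 (edgeR, adjusted p = 0.00399). Macrophages express Trpv2, and the 12 macrophage markers summed to 143 to 173 CPM with AngII, 169 to 226 CPM with AngII+HNG and 145 to 168 CPM with AngII+MOTS-c. Of the 11 tested, 3 were called higher and 1 lower with HNG against AngII, and 3 were called higher with HNG against MOTS-c. One of the 12, Cd163, was at 0 in at least 1 library. The part of these markers in the Trpv2 result was not tested. Trpc6, which encodes a channel opened by diacylglycerol and known for its role in myofibroblast conversion, stood at 18.7 to 21.8 CPM with AngII, at 11.7 to 15.97 CPM with AngII+HNG and at 13.8 to 18.2 CPM with AngII+MOTS-c. It fell by 0.53 ± 0.089 on the log2 scale with HNG (edgeR, adjusted p = 0.00420). With MOTS-c the log2 fold change was -0.30 ± 0.083, the groups did not overlap, and the adjusted threshold was not passed (edgeR, adjusted p = 0.924). Pkd2 (polycystin) had the highest FPKM of the TRP list, 46.1 ± 4.001, and was called lower with HNG by -0.23 ± 0.054 on the log2 scale (edgeR, adjusted p = 0.0231). The call of Pkd2 was not followed over the alternatives.

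Among potassium channels, Kcna6, a voltage-gated pore, was lower with HNG than in both other groups. It stood at 9.13 to 10.8 CPM with AngII, at 6.11 to 7.63 CPM with AngII+HNG and at 10.1 to 12.1 CPM with AngII+MOTS-c. The log2 fold change was -0.55 ± 0.095 against AngII (edgeR, adjusted p = 0.00496) and -0.71 ± 0.095 against AngII+MOTS-c (edgeR, adjusted p = 0.00155). Kcnmb1, the accessory subunit of calcium-activated potassium channels in smooth muscle, fell by 0.34 ± 0.070 on the log2 scale with HNG (edgeR, adjusted p = 0.0124). The sum of the 9 smooth muscle and pericyte markers was lower with HNG as well. It was 1569 to 1666 CPM with AngII, 1298 to 1365 CPM with AngII+HNG and 1443 to 1610 CPM with AngII+MOTS-c. Of the 8 tested, 5 were called lower with HNG, where 5.98% of all genes were called. None of the 9 was at 0 in a library, and their part in the values of Kcnmb1, Trpc6 and Abcc9 was not tested. Kcnd2, a transient outward current channel, was called higher with HNG at a low level, 1.47 ± 0.256 CPM against 0.850 ± 0.152 CPM (edgeR, adjusted p = 0.0434). This call was lost with the replicate number as a block (edgeR, adjusted p = 0.0561) and in 13 of 19 alternatives in all.

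Of the remaining channel genes, Asic1, an acid-sensing sodium channel, had the largest difference between the peptides among the called list genes that averaged at least 1 CPM. It stood at 3.08 to 3.83 CPM with AngII, at 4.83 to 6.61 CPM with AngII+HNG and at 2.49 to 3.12 CPM with AngII+MOTS-c. The log2 fold change was 0.73 ± 0.13 with HNG (edgeR, adjusted p = 0.00482) and 1.07 ± 0.13 between HNG and MOTS-c (edgeR, adjusted p = 8.3e-04). Itpr3, a calcium release channel of the endoplasmic reticulum, rose by 0.34 ± 0.058 on the log2 scale with HNG (edgeR, adjusted p = 0.00473). Stom (stomatin), a membrane protein that modulates acid-sensing channels, rose by 0.30 ± 0.051 with HNG (edgeR, adjusted p = 0.00433). Both also differed between the peptides, with higher values under HNG, Itpr3 by 0.34 ± 0.059 (edgeR, adjusted p = 0.00599) and Stom by 0.31 ± 0.051 (edgeR, adjusted p = 0.00377). Ano4, a calcium-dependent member of the anoctamin family, fell by 0.44 ± 0.096 (edgeR, adjusted p = 0.0166), and Clcn3, a chloride transporter of endosomes, by 0.24 ± 0.067 (edgeR, adjusted p = 0.0499), a call lost in 11 of 19 alternatives, among them library number as a block (edgeR, adjusted p = 0.0526). Between the peptides 6 more genes were called. One of them, Atp2b2, a calcium pump of the plasma membrane, averaged under 1 CPM, on 6 to 43 counts per library, and is named here after its values were seen. Its log2 fold change was 1.13 ± 0.27 between the peptides (edgeR, adjusted p = 0.0323) and 1.27 ± 0.32 with HNG against AngII, where it was also called (edgeR, adjusted p = 0.0362). Kcnn4, a calcium-activated potassium channel, was higher with HNG by 0.61 ± 0.13, and Slc8b1, the mitochondrial sodium-calcium exchanger, by 0.29 ± 0.060 on the log2 scale. The log2 differences were -0.29 ± 0.076 for Kcnv2, a silent potassium channel subunit, -0.29 ± 0.067 for Scn7a, a sodium channel, and -0.27 ± 0.067 for Kcnd3, a transient outward current channel, with adjusted p between 0.0158 and 0.0484 over these last 5 genes (edgeR). Of 19 alternatives, these calls were lost in 13 for Kcnv2, 10 for Kcnd3, 9 for Scn7a, 7 for Kcnn4 and 4 for Slc8b1.

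**Figure D5:**
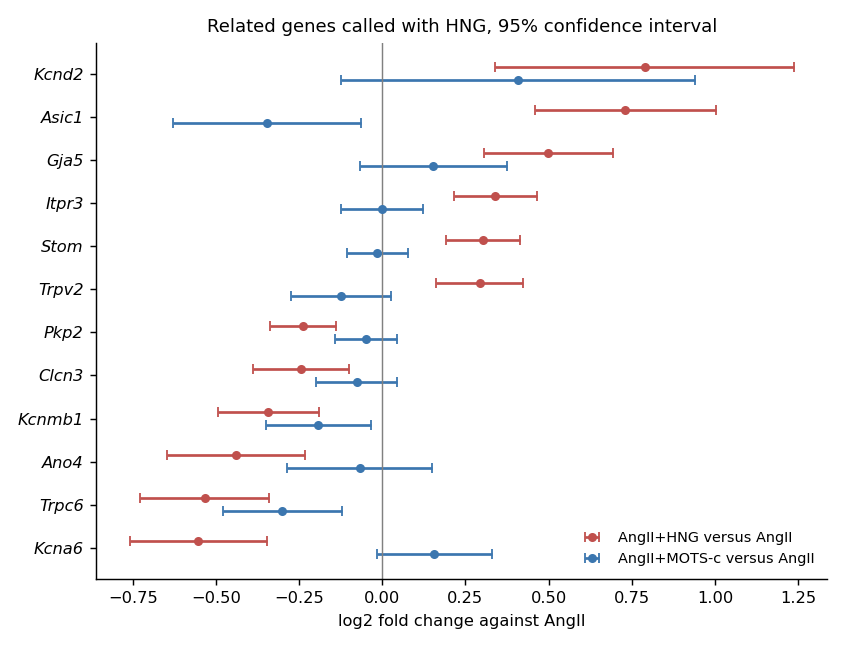
Log2 fold changes (horizontal axis) against AngII of the 12 related genes named for the HNG comparison, edgeR, with 95% confidence intervals and 4 libraries per group; red, AngII+HNG, blue, AngII+MOTS-c. The genes were chosen because they passed the test with HNG, up to 6 per direction, which places the HNG intervals away from 0, so the positions of the HNG and MOTS-c intervals are a description. Of the MOTS-c intervals, 9 of 12 include 0.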

How the data were processed

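Libraries of 12 fibroblast cultures, made with a dual-mode mRNA kit, were sequenced by the authors as paired-end reads on a DNBSEQ platform. The authors deposited a table of read counts per gene, which were not normalized, and a second table of FPKM, in which each count is divided by a gene length and the library total. The submitters' processing notes name HISAT2, Picard 1.41 and SAMtools 0.1.18 without giving their roles. Neither the program that counted reads, nor its strand setting, nor the build of the genome is given in the sources used here, so no coordinates are printed.

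The members, gene lists and comparisons were chosen with earlier results of these data known. Groups and replicate numbers came from the sample titles. The main tests on counts used edgeR 4.0.16 under R 4.3.3 (filterByExpr, TMM, glmQLFit and glmQLFTest), each comparison on its own 8 libraries, with Benjamini-Hochberg adjustment over all genes tested and a threshold of 0.05. Standard errors were derived from the F statistic, and p-values measure the spread between these libraries. CPM values are counts scaled by the TMM library sizes, and 3 counts corresponded to 0.0783 to 0.107 CPM, a floor for counting error only. Exact permutation tests used Python 3.11.15 on the CPM. The code was tested on simulated counts. Alternatives were DESeq2 1.42.0, RLE size factors, other filters, all 12 libraries in one fit, replicate or library numbers as a block, replicates 2 and 3 summed (they share a number in their library names), limma 3.58.1 on log2 of FPKM plus 1 or plus 0.1, and omission of libraries.

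All 9 members were named. From the lists of related genes, those with an adjusted p below 0.05 and a mean of at least 1 CPM were named, up to 6 per direction and comparison, and the rest were counted. Abcc9, Kcnj11 and the gene of highest mean FPKM in each list were also named. For Gja1, Kcnj8 and Piezo1 the 3 most similar genes were chosen by Pearson's r among tested genes that averaged 5 CPM or more and carry a symbol. One result of this rule is not reported here. The alternatives for the related genes were added after the data were seen.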

Additional observations from a re-analysis of the deposited data

Results flagged for a closer look

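Among the members, the CPM and FPKM of each gene in each group, 54 sets of 4 libraries, were examined for a library far from the others, and 2 were found. Chance marks about 1 in 20 such sets. Gja1 in AngII+MOTS-c replicate 4 was at 78.0 CPM, with the next library of its group at 73.2 CPM. Without this library the log2 fold change of Gja1 with MOTS-c was -0.08 (edgeR, adjusted p = 0.941). Trpc1 in AngII+HNG replicate 1 was at 15.2 CPM, with the next at 13.7 CPM, and without this library the log2 fold change of Trpc1 with HNG was -0.15 (edgeR, adjusted p = 0.384). In FPKM no library lay this far from its group.

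A difference between the effects of the peptides was found for 10 named related genes, as the direct comparison of AngII+HNG with AngII+MOTS-c (edgeR, adjusted p below 0.05). The log2 fold change was 1.07 for Asic1, 0.61 for Kcnn4, 0.41 for Trpv2, 0.34 for Itpr3, 0.31 for Stom and 0.29 for Slc8b1. It was -0.71 for Kcna6, -0.29 for Kcnv2, -0.29 for Scn7a and -0.27 for Kcnd3. No member showed such a difference.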

How the results depend on the processing

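The members were called in 0 of 57 alternative fits, 19 per comparison, among them the fit with a replicate block, which gave 0 calls in each comparison. The lowest adjusted p of Gjc1 with HNG over these fits was 0.0546, with DESeq2, and that of Piezo2 between the peptides was 0.0693, without AngII+MOTS-c replicate 2. The replicate numbers were not treated as pairs in the main tests. Same-numbered libraries correlated weakly in their deviations from the group means. The correlations were -0.0755 to 0.136 for AngII and AngII+HNG, 2.56e-05 to 0.119 for AngII and AngII+MOTS-c, and -0.014 to 0.212 for the peptides. Replicate 4 was the highest in each. With the replicate block, however, the calls over all genes rose from 869 to 1111 with HNG and from 637 to 1054 between the peptides. They went from 1 to 2 with MOTS-c. These correlations therefore do not settle whether the numbers mark pairs.

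Differences near 0 changed sign under some settings, and the cause was not tested. For Trpm7 the log2 fold change with MOTS-c was -0.0015 with no filter, -5.90e-05 with DESeq2, -5.46e-04 in one fit of 12 libraries, -6.57e-05 with the replicate block and -0.0209 with replicates 2 and 3 summed. With that summing it was 0.0032 for HNG and 0.0228 between the peptides. With library number as a block it was 0.0168 for Kcnj8 and 0.0621 for Trpc1 with MOTS-c. In that fit AngII replicate 1 (library number 1) and AngII+MOTS-c replicate 1 (library number 2) were each alone in a block. They therefore carried no information on the difference, which rested on replicates 2 to 4. On log2 of FPKM plus 1 and plus 0.1 the log2 fold change was 0.0301 and 0.0322 for Gjc1, and 0.0218 and 0.0283 for Trpc1, with MOTS-c. Without replicate 4 of both groups that of Trpv4 between the peptides was 0.0521.

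Leaving out 1 library at a time gave log2 fold changes with HNG of -0.0086 to 0.0646 for Gja1, -0.072 to 0.0272 for Trpm7, -0.1635 to -0.0016 for Kcnj2, -0.4142 to -0.0502 for Kcnj8, -0.1883 to -0.052 for Trpc1, 0.0025 to 0.1857 for Trpv4 and 0.0011 to 0.04 for Piezo1. With MOTS-c they were -0.113 to 0.0446 for Kcnj2, -0.339 to 0.0561 for Kcnj8, -0.0145 to 0.0179 for Trpm7, -0.0889 to 0.0467 for Trpc1, -0.0134 to 0.071 for Piezo2, -0.0888 to -0.0323 for Gja1, 0.076 to 0.246 for Trpv4 and -0.0562 to -0.0165 for Piezo1. Between the peptides they were -0.1354 to 0.0299 for Kcnj2, -0.3047 to 0.1573 for Kcnj8, -0.0725 to 0.0245 for Trpm7, -0.1606 to 0.0129 for Trpv4, 0.048 to 0.1191 for Gja1, -0.1517 to -0.0595 for Trpc1 and 0.037 to 0.069 for Piezo1. The remaining values, those of Gjc1 and of Piezo2 with HNG and between the peptides, moved by less than 1.5 times.

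Of the related genes, 19 were called with HNG, against 12 with replicates 2 and 3 summed, 12 with limma on log2 of FPKM plus 1, 12 with plus 0.1, 11 without replicate 4 of both groups, and 10 to 19 without 1 library, the lowest without AngII replicate 1 and 11 without AngII replicate 2. It was 27 with DESeq2, 26 with the replicate block, 24 with library number as a block and 23 in one fit of 12 libraries. The calls over all genes moved as well, from 869 to 577 with the summing, 640 with limma on log2 of FPKM plus 1, 431 without AngII replicate 1, 1192 with DESeq2 and 1111 with the replicate block. Between the peptides 11 were called, against 20 with the replicate block, 7 with the summing and 5 to 11 without 1 library. The counts were 7 without AngII+HNG replicate 2, 7 without AngII+MOTS-c replicate 1, 6 without AngII+MOTS-c replicate 2 and 5 without AngII+MOTS-c replicate 3, where 637 calls over all genes became 1054 with the block and 389 without AngII+MOTS-c replicate 3. Under every alternative Asic1, Gja5, Itpr3, Stom, Kcna6, Trpc6 and Pkp2 passed with HNG and Asic1, Trpv2, Itpr3, Stom and Kcna6 between the peptides. Of 19 alternatives the call with HNG was lost in 13 for Kcnd2, 11 for Clcn3, 4 for Ano4, 3 for Kcnmb1 and 2 for Trpv2.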

Other observations

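The ratios of related members within a library were described without a test, from FPKM and from counts divided by 1 fixed length per gene, since the lengths behind FPKM varied between libraries for Gjc1, Kcnj8 and Piezo2. Gja1 was 1.78 times Gjc1 in FPKM with AngII (geometric mean, 1.60 to 1.99 over the 4 libraries), 1.95 times with AngII+HNG (1.76 to 2.53) and 1.70 times with AngII+MOTS-c (1.62 to 1.75). From counts it was 1.57 to 1.79 with AngII, 1.85 to 2.04 with AngII+HNG and 1.63 to 1.75 with AngII+MOTS-c, so that the AngII+HNG libraries lay above both other groups, whereas in FPKM they overlapped AngII. Kcnj8 was 1.02 times Kcnj2 with AngII (0.887 to 1.28), 0.963 times with AngII+HNG (0.750 to 1.25) and 0.970 times with AngII+MOTS-c (0.503 to 1.55), the widest range of the 3 ratios. From counts it was 0.907 to 1.29 with AngII, 0.750 to 1.19 with AngII+HNG and 0.552 to 1.36 with AngII+MOTS-c. Piezo1 was 8.95 times Piezo2 with AngII (7.64 to 10.2), 9.67 times with AngII+HNG (8.55 to 10.9) and 8.66 times with AngII+MOTS-c (7.97 to 9.69). From counts it was 7.81 to 10.1 with AngII, 9.65 to 10.8 with AngII+HNG and 7.92 to 9.65 with AngII+MOTS-c, the highest AngII+MOTS-c library lying barely above the lowest AngII+HNG library.

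The genes whose log2 CPM resembled the members most over the 12 libraries were Slc44a1 (Pearson's r = 0.883), Furin (0.875) and Chpt1 (0.872) for Gja1, Relb (0.906), Eid2 (0.861) and Lsp1 (0.801) for Kcnj8, and Tyms (0.911) and Eif2a (0.861) for Piezo1. They were taken from the top of 10581 to 10582 genes ranked, the libraries share treatment and preparation, and the values describe likeness only.

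The related genes with the highest mean FPKM of their lists were mostly not those called. Nedd4, a ubiquitin ligase that acts on connexins, led the gap junction partners at 344 ± 9.11 FPKM (SD over 12 libraries). Atp2a2, the calcium pump of the endoplasmic reticulum, led calcium entry and handling at 198 ± 13.0 FPKM. Clic4, an intracellular chloride channel protein, stood at 151 ± 7.44 FPKM, and Kcne4, an accessory potassium channel subunit, at 30.7 ± 1.69 FPKM. These 4 genes did not pass the test in any of the 3 comparisons (edgeR, adjusted p of 0.231 or more). The gene called with MOTS-c among all genes was not in any of the 8 lists.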
